A study of Rattus norvegicus with 6 samples.

Results

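The sites described are stretches of rat chromatin of which at least a part was called open in every culture. Their measured level was higher in microglia given medium from glioma cells than in untreated ones. Their mean level with bacterial lipopolysaccharide stayed at or under a set limit. Of 129499 counted regions, 69548 (53.7%) overlapped a hotspot, that is a stretch of dense DNase I cutting, in all 6 libraries, and are called pre-open here. A pre-open region became a site when its lower level with glioma-conditioned medium was at least 1.2 times its higher untreated level and its mean level with lipopolysaccharide was at most 1.1 times its mean untreated level. The medium clause alone was met by 2895 pre-open regions and both clauses by 836, which is 1.202% of pre-open regions and 0.646% of all counted regions. The sites were thus chosen by the measured counts of all 6 libraries, and the levels and ratios of the 836 sites are descriptions of what was chosen and carry no test.

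DNase I sequencing read out open chromatin in primary microglia grown from the cortex of Wistar rats of 1 day of age. Cultures spent 6 h with medium that C6 cells, a rat glioma line, had conditioned for 24 h (GCM), or 6 h with lipopolysaccharide from Salmonella enteritidis (LPS) at 100 ng/mL, or were left untreated. Each of the 3 groups had 2 independent cultures, each pooled from 10 to 15 pups, grown for 2 weeks and rested for 48 h. GCM stands for 1 glioma line grown in serum-containing medium, no medium from other cells was among the groups, and pooling hides differences between pups.

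DNase I cuts DNA where nucleosomes leave it exposed, so the number of cut ends in a region measures how accessible it is. Microglia are the resident macrophages of the brain. LPS is sensed by Toll-like receptor 4 and drives NF-kappaB signalling and an inflammatory programme, whereas factors released by gliomas are known to turn microglia towards a growth-promoting and invasion-promoting state. Distal regulatory elements of macrophages are commonly held open by lineage factors such as PU.1, and a stimulus can raise cutting at such elements without opening new ones.

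Libraries held 8263359 and 12053745 counts in regions with GCM, 9818647 and 12395467 with LPS, and 11121206 and 7136940 untreated. Levels are CPM, that is counts per 1000000 counts in all regions of the library. The median site held 76 and 117 counts in the GCM libraries, 66 and 77 in the LPS libraries and 75 and 48 in the untreated libraries. Counting alone then gives an SD of 9.25% to 14.4% per library at the median site, so a ratio of 1.2 between single libraries there is near the counting error. The untreated libraries differed by no more than counting error over pre-open regions, at a chi-square per degree of freedom of 0.935. The value was 1.42 within GCM and 1.43 within LPS. Chromosome sums differed by more, at 13.1 within untreated, 9.31 within GCM and 73.2 within LPS, and the untreated libraries were kept as 2 samples. The files pair no region with a gene, so sites are named by position in build rn5 with the first base counted as 1, and the labelled cell type was not checked against marker genes. In such bulk cultures a higher level can stand for more cells with an open region or for more cutting per cell, which cannot be told apart. Scaling to whole-library totals in place of counts in regions gave 435 sites, of which 209 were among the 836, so membership depends on the scaling.

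Over the 836 sites the median level was 9.20 and 9.71 CPM in the GCM libraries, 6.72 and 6.21 CPM in the LPS libraries, and 6.74 and 6.73 CPM in the untreated libraries. Both GCM medians were high, and the LPS medians lay at and below the untreated ones. The highest site of each library reached 40.3 and 37.7 CPM with GCM, 31.3 and 36.5 CPM with LPS and 30.6 and 31.2 CPM untreated. Together the sites took 0.887% and 0.914% of counts with GCM, 0.665% and 0.613% with LPS and 0.653% and 0.647% untreated.

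**Figure D1:**
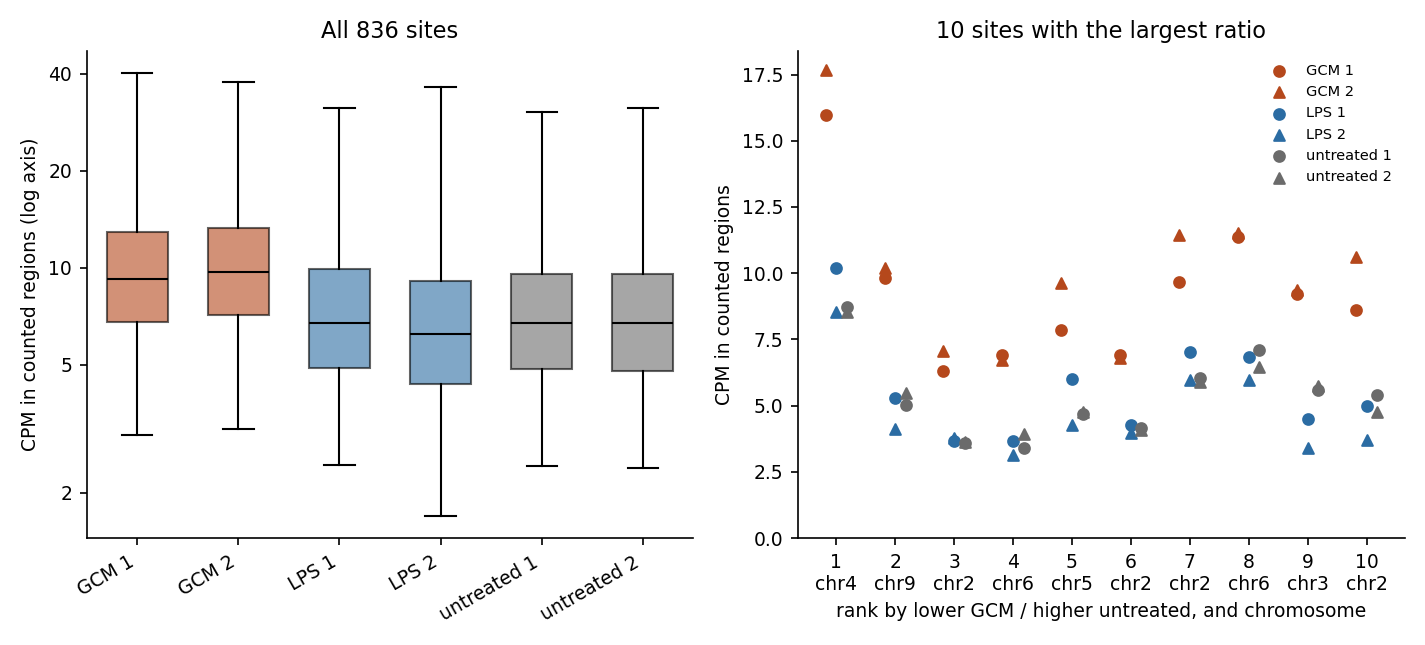
Left, CPM (log axis) of all 836 sites in each library, with boxes from the lower to the upper quartile, a line at the median and whiskers to the lowest and highest site. Right, CPM of the 10 sites with the largest ratio of the lower GCM level to the higher untreated level, with a point per library; at each of the 10 both GCM points lie above all other points.

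The rise was modest at nearly every site. The ratio of mean GCM to mean untreated CPM had a median of 1.38 and ran from 1.22 to 2.10, and it reached 1.5 at 164 sites and 2 at 2 sites. The stricter ratio that the choice used, lower GCM over higher untreated level, had a median of 1.26, stayed under 1.3 at 569 sites (68.1%) and reached 1.5 at 31 sites (3.71%). Over all pre-open regions the mean ratio had a median of 0.990, and the opposite pattern, a lower untreated level at least 1.2 times the higher GCM level with mean LPS no lower than mean untreated divided by 1.1, was met by 326 regions.

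The thresholds cut through a continuous range of ratios. At chr2:231537347-231538193, just inside the GCM clause, the level was 25.3 and 25.1 CPM with GCM, 21.1 and 18.6 CPM with LPS and 17.98 and 20.9 CPM untreated. At chr11:64835230-64835588, just outside it, the level was 7.26 and 6.39 CPM with GCM, 4.58 and 4.84 CPM with LPS and 3.69 and 5.32 CPM untreated. In both regions the GCM libraries lay above the untreated ones and the untreated libraries differed from each other. A ratio of the lower GCM to the higher untreated level from 1.1 to 1.2 was found in 1695 regions that met the LPS clause, beside 569 sites from 1.2 to 1.3. At chr19:66628285-66628648, just inside the LPS clause, the level was 5.45 and 5.48 CPM with GCM, 5.60 and 4.28 CPM with LPS and 4.50 and 4.48 CPM untreated. Here LPS replicate 1 lay above both GCM libraries. At chr1:223688543-223689396, just outside, the level was 17.4 and 16.8 CPM with GCM, 15.1 and 14.4 CPM with LPS and 13.9 and 12.9 CPM untreated, with all 3 groups apart.

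**Figure D2:**
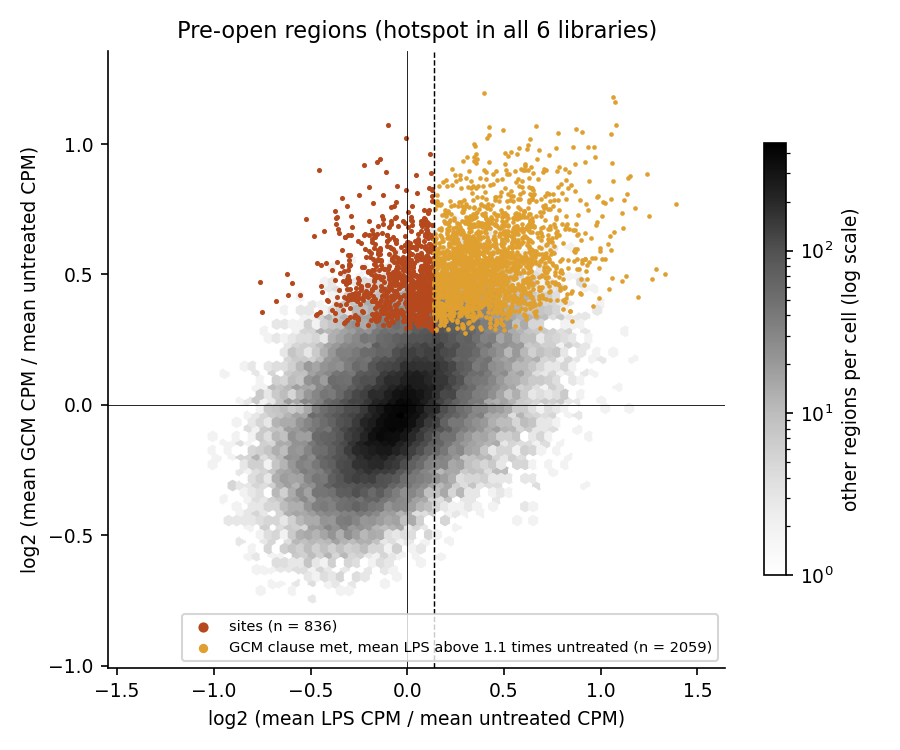
Each pre-open region by its log2 ratio of mean LPS to mean untreated CPM (x axis) and of mean GCM to mean untreated CPM (y axis). The 836 sites, in brown, end at the dashed line at 1.1 times untreated, beyond which 2059 regions in yellow met the GCM clause with a higher mean LPS level; grey cells hold the other pre-open regions on a log scale.

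The largest rise by the chosen ratio was at chr4:63170289-63171244, a region of 956 bp. Its level was 15.97 and 17.7 CPM with GCM, 10.2 and 8.55 CPM with LPS and 8.72 and 8.55 CPM untreated. The GCM libraries stood far above the other 4, while LPS replicate 1 was somewhat above and LPS replicate 2 among the untreated libraries. The mean ratio was 1.948 over untreated, a log2 difference of 0.97 ± 0.15 (SE from edgeR, 2 libraries per group).

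At chr9:79084610-79085141 the level was 9.80 and 10.2 CPM with GCM, 5.30 and 4.11 CPM with LPS and 5.04 and 5.46 CPM untreated. The GCM libraries agreed closely and were clear of the LPS and untreated libraries, which overlapped. The third in rank, chr2:167257974-167258355, held 6.29 and 7.05 CPM with GCM, 3.67 and 3.79 CPM with LPS and 3.60 and 3.64 CPM untreated. It showed nearly equal levels in the LPS and untreated libraries. The fourth, chr6:118147905-118148192, held 6.90 and 6.72 CPM with GCM, 3.67 and 3.15 CPM with LPS and 3.42 and 3.92 CPM untreated, with LPS and untreated libraries interleaved.

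At chr5:76996444-76996886 the GCM libraries were less alike, at 7.87 and 9.62 CPM with GCM, 6.01 and 4.28 CPM with LPS and 4.68 and 4.76 CPM untreated. LPS replicate 1 was above both untreated libraries and LPS replicate 2 below them. The site chr2:104265776-104266093 held 6.90 and 6.80 CPM with GCM, 4.28 and 3.95 CPM with LPS and 4.14 and 4.06 CPM untreated, and LPS and untreated libraries overlapped. The site chr2:223483266-223483874 held 9.68 and 11.4 CPM with GCM, 7.03 and 5.97 CPM with LPS and 6.02 and 5.88 CPM untreated. There LPS replicate 1 again stood between the GCM and the untreated libraries.

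The last 3 of the 10 had lower mean levels with LPS than untreated, as had the second and the fourth. The site chr6:61395983-61396678 held 11.4 and 11.5 CPM with GCM, 6.82 and 5.97 CPM with LPS and 7.10 and 6.45 CPM untreated, and LPS and untreated libraries overlapped. At chr3:143405348-143405803 the level was 9.20 and 9.37 CPM with GCM, 4.48 and 3.39 CPM with LPS and 5.57 and 5.74 CPM untreated. All 3 groups were apart there, with LPS lowest. The site chr2:162907209-162907692 held 8.59 and 10.6 CPM with GCM, 4.99 and 3.71 CPM with LPS and 5.40 and 4.76 CPM untreated, with LPS replicate 1 between the untreated libraries. Of these 10 sites 4 lay on chromosome 2.

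The sites with the highest untreated CPM were also wide. CPM is summed over a region and went with width over the 836 sites (Spearman rho 0.88), so this ranking favours wide sites. Per kb of width these 5 held 18.1, 14.04, 15.01, 11.97 and 14.03 CPM untreated, in order of untreated CPM. The median over the sites was 13.2 and the highest 30.98, so the 5 were not the most densely cut. At chr2:71175378-71177085, the highest untreated, the level was 40.3 and 37.7 CPM with GCM, 31.3 and 36.5 CPM with LPS and 30.6 and 31.2 CPM untreated. LPS replicate 2 came close to the GCM libraries there. At chr14:88867300-88869506, which at 2207 bp was also the widest site, the level was 34.7 and 37.2 CPM with GCM, 27.6 and 25.7 CPM with LPS and 26.3 and 26.5 CPM untreated. The LPS and untreated libraries overlapped. The other 3 of the 5 highest, chr4:26313030-26315007, chr14:91549097-91550935 and chr2:123943131-123944945, had ratios of mean GCM to mean untreated CPM of 1.26, 1.34 and 1.43 and ratios of mean LPS to mean untreated CPM of 1.06, 1.03 and 1.05. Over the 836 sites, which share libraries and depth, the chosen ratio and the untreated level had a Spearman rho of -0.18.

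The weakest sites rested on few counts. At chr9:73612470-73612639, 170 bp wide, counts were 25 and 38 with GCM, 26 and 27 with LPS and 27 and 17 untreated, which is 3.03 and 3.15 CPM with GCM, 2.65 and 2.18 CPM with LPS and 2.43 and 2.38 CPM untreated. The GCM libraries were only slightly higher. At chrX:77912341-77912560 the level was 3.87 and 4.23 CPM with GCM, 2.44 and 2.58 CPM with LPS and 2.43 and 2.80 CPM untreated, with LPS and untreated overlapping. The other 3 of the 5 lowest, chr1:182145359-182145618, chr14:41683049-41683331 and chr1:52733610-52733830, had mean levels of 3.74, 4.12 and 4.16 CPM with GCM, 2.07, 2.97 and 2.36 CPM with LPS and 2.68, 2.70 and 2.75 CPM untreated.

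With LPS the levels of the sites varied below the limit. The ratio of mean LPS to mean untreated CPM had a median of 1.00 and ran from 0.591 up to the limit, and 642 sites (76.8%) lay within 1.1 times of untreated in either direction. Both LPS libraries were below both untreated ones at 158 sites (18.9%, against 29.8% of pre-open regions) and above both at 98 (11.7%, against 19.99%). The clauses used the LPS and untreated levels, so these shares are shaped by the choice. The site with the lowest ratio was chr16:40732786-40733166, at 7.50 and 9.13 CPM with GCM, 3.87 and 3.23 CPM with LPS and 5.84 and 6.17 CPM untreated. At chr1:262511328-262511805 the level was 15.6 and 14.9 CPM with GCM, 7.13 and 7.02 CPM with LPS and 12.3 and 11.5 CPM untreated. At chr11:18258899-18259224 it was 6.41 and 6.89 CPM with GCM, 3.56 and 2.74 CPM with LPS and 5.04 CPM in each untreated library. At these 3 sites, picked for the lowest LPS ratios, the groups were fully apart and LPS was the lowest. Both GCM libraries were above both LPS libraries at 827 of the 836 sites (98.9%), against 24.9% of pre-open regions. The median ratio of mean GCM to mean LPS CPM was 1.41, against 1.02 over pre-open regions. The clauses set GCM and LPS against the same untreated libraries, so they bring this about almost by themselves.

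The LPS libraries were not interchangeable at the sites. LPS replicate 1 was above LPS replicate 2 at 568 sites (67.9%) but at 52.0% of pre-open regions, with a median ratio of 1.101 at the sites and 1.01 over pre-open regions. When the choice was made without LPS replicate 1, it gave 1065 regions, in which LPS replicate 1 stood at a median of 1.11 times mean untreated and above it in 72.7%. When it was made without LPS replicate 2, it gave 742 regions, in which LPS replicate 2 stood at a median of 1.00 and above mean untreated in 50.3%. Over all pre-open regions these medians were 0.969 for both LPS libraries. The left-out library still entered the hotspot clause, and it was set against untreated libraries that the GCM clause asked to be low. The distance of these medians from 0.969 is thus shaped by the choice. Asking that each LPS library stay within the limit, an alternative chosen after seeing the data, left 504 sites.

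Most sites were not called by the count model for GCM against untreated. In a quasi-likelihood test in edgeR over 126284 regions with a threshold of 0.05 on the Benjamini-Hochberg adjusted p, 112 of the 836 sites were called higher with GCM than untreated, beside 1.34% of all regions, and 0 were called lower, beside 0.231%. At an unadjusted p under 0.05 edgeR had 753 sites higher and 0 lower, beside 9.23% and 5.89% of all regions. After adjustment DESeq2 called 0 sites in either direction, and only 3 of 129499 regions. For LPS against untreated, 0 sites were called higher, beside 6.71%, and 7 were called lower, beside 3.14%. At an unadjusted p under 0.05 edgeR had 0 sites higher and 29 lower, beside 13.6% and 10.01% of all regions, and after adjustment DESeq2 called 0 sites and 779 regions. For GCM against LPS, 422 sites were called higher with GCM, beside 3.75%, and 0 lower, beside 4.84%. At an unadjusted p under 0.05 edgeR had 714 sites higher and 0 lower, beside 10.8% and 11.3% of all regions, and after adjustment DESeq2 called 23 sites higher, among 110 regions, and 0 lower, among 602. The clauses used all of these contrasts, so nothing is read from these counts, which describe how the sites fall in the model. In the authors' deposited table, 169 sites had an adjusted p under 0.05 and a positive GCM change, beside 1.49% of regions, 0 had one with a positive LPS change, beside 6.43%, 0 had one with a negative GCM change, beside 0.327%, and 7 had one with a negative LPS change, beside 3.33%. The fitted log2 differences of the sites had medians of 0.47 for GCM over untreated, 0.01 for LPS over untreated and 0.50 for GCM over LPS, with a median SE of 0.17, 0.18 and 0.16, against medians of -0.01, -0.03 and 0.02 over pre-open regions. Of the 10 sites with the largest ratio all 10 were called for GCM over untreated, and of the 5 with the highest untreated level 1 was, beside 1.34% of all regions. The 10 were ranked by the same counts and contrast as the calls, so nothing is read from these numbers either. The calls for GCM against untreated moved with single libraries at the sites and in the whole table alike, from the 112 sites among 1985 regions called with all 6. Without GCM replicate 1 edgeR called 72 sites among 1573 regions, and without GCM replicate 2 it called 0 sites among 33 regions. Without LPS replicate 1 it called 176 sites among 2629 regions, and without LPS replicate 2 it called 194 among 2648. Without untreated replicate 1 it called 0 sites among 12 regions, and without untreated replicate 2 it called 2 among 87. The 422 sites among 4731 regions called higher with GCM than with LPS became 256 among 3319 without GCM replicate 1, 135 among 1181 without GCM replicate 2 and 164 among 1703 without LPS replicate 2. The 7 sites among 3963 regions called lower with LPS became 2 among 1827 without LPS replicate 2, 0 among 1064 without untreated replicate 1 and 1 among 903 without untreated replicate 2.

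Regions were also chosen by the counts of the libraries with 1 replicate number and read in the other. The counts read had not entered the GCM and LPS clauses, but the hotspot clause still used all 6 libraries. The replicate numbers were not shown to pair the cultures. With the replicate 1 libraries alone both clauses picked 3749 pre-open regions, whose GCM level was a median of 1.27 times untreated there. In the replicate 2 libraries the same regions stood at a median of 1.11 times untreated with GCM and 0.955 times with LPS, against 0.987 and 0.965 over all pre-open regions. The median ratio with GCM was thus smaller in the replicate 2 libraries. GCM was above untreated there in 71.5% of the regions, against 47.0% of all pre-open regions. With the replicate 2 libraries 5186 regions were picked, and in the replicate 1 libraries they stood at a median of 1.12 times untreated with GCM and 1.00 times with LPS, against 1.00 and 0.977 over all pre-open regions. Here 70.5% were above untreated with GCM, against 50.5% of all pre-open regions. Both clauses were met in both numbers by 816 regions, which is 21.8% of the regions picked in replicate 1, where 7.46% of pre-open regions met them in replicate 2. The 816 are 15.7% of the regions picked in replicate 2, where 5.39% of pre-open regions met both clauses in replicate 1.

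The sites were narrower and more sparsely cut than other pre-open regions. Their width ran from 156 to 2207 bp with a median of 490.5 bp, against 549 bp over pre-open regions, and 48 sites (5.74%) reached 1000 bp, against 15.2% of pre-open regions. Among pre-open regions whose untreated level lay between the quartiles of the sites, however, the median width was 429 bp, below that of the sites. Width and untreated level went together over the 836 sites (Spearman rho 0.88). The cutting density in untreated cultures, as CPM per kb of width, had a median of 13.2 at the sites, 16.5 over pre-open regions and 15.4 in those of like untreated level. The choice asked for untreated levels that were low beside GCM, which bears on this density.

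The widest sites after the one on chromosome 14 were chr4:26313030-26315007 with 1978 bp and chr11:18083705-18085559 with 1855 bp. The site on chromosome 11 held 31.2 and 34.7 CPM with GCM, 27.3 and 23.7 CPM with LPS and 24.997 and 24.5 CPM untreated, and its LPS libraries lay on either side of the untreated ones. The narrowest was chr7:532327-532482 with 156 bp, at 3.63 and 3.57 CPM with GCM, 3.06 and 2.26 CPM with LPS and 2.79 and 2.94 CPM untreated. Its LPS libraries also lay on either side of the untreated ones. At chr9:86837694-86837880, 187 bp wide, the level was 3.75 and 3.57 CPM with GCM, 4.07 and 1.86 CPM with LPS and 2.70 and 2.94 CPM untreated, and LPS replicate 1 exceeded both GCM libraries.

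The share of pre-open regions that were sites fell with untreated density. It was 2.88% in the quartile class of lowest untreated CPM per kb, then 1.08%, 0.615% and 0.242% in the classes above it. By untreated CPM it was 2.09%, 1.36%, 1.08% and 0.282%, and by width 1.46%, 1.40%, 1.24% and 0.709%. The fall with density was not particular to the sites. In the same classes by CPM per kb, 11.2%, 3.46%, 1.54% and 0.460% of pre-open regions met the GCM clause at any LPS level. Sites made up 25.7%, 31.1%, 40.1% and 52.5% of the regions that met it. The untreated counts enter the choice and also the classes by untreated CPM per kb and by untreated CPM, so these shares are descriptions.

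**Figure D3:**
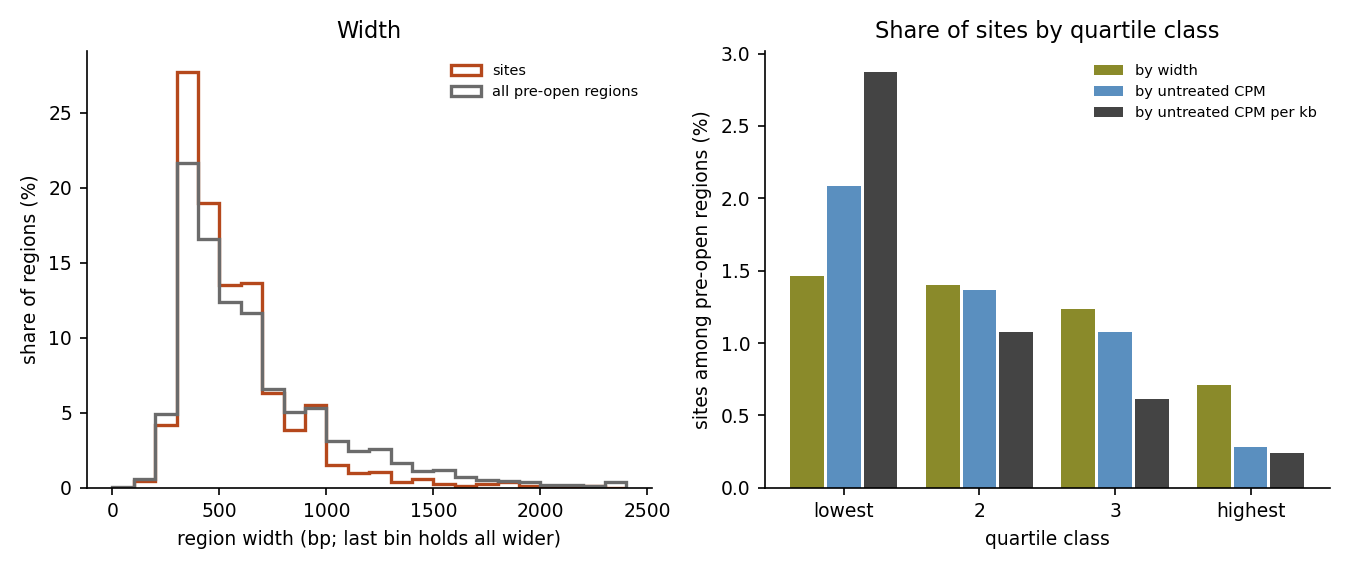
Left, share of regions (%) by width in bins of 100 bp for the 836 sites and for all pre-open regions. Right, sites as a percentage of the pre-open regions in each quartile class of width, untreated CPM and untreated CPM per kb; the share falls from the lowest to the highest class for all 3, most of all for CPM per kb.

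Hotspots covered the sites more fully with GCM. A site lay wholly inside a hotspot in both GCM libraries in 481 cases (57.5%), in both LPS libraries in 22 (2.63%) and in both untreated libraries in 4 (0.478%), against 14.9%, 17.5% and 5.24% of pre-open regions. Hotspots covered a median of 100% of a site's width in each GCM library, 85.2% and 82.6% in the LPS libraries and 84.4% and 68.3% in the untreated libraries. Within the authors' own list of each library, the hotspots at the sites ranked at a median percentile by score of 78.4 and 80.8 with GCM, 64.4 and 65.3 with LPS and 71.4 and 55.5 untreated. The lists come from the same reads as the counts and differ in length, so these values describe the same rise and do not add to it.

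Sites were scattered. Gaps between neighbouring sites on a chromosome had a median of 1.46 Mb, and 481 of 815 gaps exceeded 1 Mb, while 22 were at most 10 kb. No other site lay within 100 kb of 654 of the 836 sites, 77 pairs held 154 sites, 8 runs of 3 held 24 and 1 run held 4. The closest pair, chr9:106067455-106067908 and chr9:106068162-106068686, was 253 bp apart, and the next, chr3:67105260-67106201 and chr3:67106536-67107474, was 334 bp apart. Another site lay within 100 kb of 21.8% of the sites, against 10.8% of all pre-open regions and 21.1% of the 2059 regions that met the GCM clause with more LPS. The gap to the nearest other site had a median of 557131 bp at the sites. It was 949600 bp over all pre-open regions and 512363 bp in the 2059, so the nearness was not particular to the sites.

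Sites had about as many open regions around them as other pre-open regions had. The gap to the nearest counted region had a median of 1870 bp, against 1737 bp over pre-open regions and 1868 bp in those of like untreated level. Within 50 kb on either side lay a median of 10 counted regions, against 11 in both sets. No counted region lay that close to 16 sites (1.91%), against 1.37% of pre-open regions.

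The run of 4 sites spanned 71.6 kb at chr10:67063505-67135082, among 9 counted regions. Its first site, chr10:67063505-67064241, held 16.3 and 16.7 CPM with GCM, 11.8 and 13.9 CPM with LPS and 11.6 and 12.5 CPM untreated, and LPS and untreated libraries overlapped. Its last site, chr10:67134743-67135082, held 8.59 and 8.05 CPM with GCM, 4.79 and 5.32 CPM with LPS and 4.50 and 6.17 CPM untreated. The summed level of the 5 other regions in the run was 1.09 times untreated with GCM and 1.17 times with LPS, so between these sites the summed level was higher with LPS than with GCM.

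At chr14:72081640-72133518, 3 sites were the only counted regions in 51.9 kb. The first, chr14:72081640-72082405, held 14.8 and 20.9 CPM with GCM, 10.5 and 6.94 CPM with LPS and 9.89 and 10.1 CPM untreated. The GCM libraries were far apart, and so were the LPS libraries, which lay on either side of the untreated ones. The second, chr14:72110586-72110974, held 9.92 and 10.8 CPM with GCM, 8.15 and 5.32 CPM with LPS and 7.55 and 6.87 CPM untreated, and the third 4.72 and 5.06 CPM with GCM, 3.97 and 2.98 CPM with LPS and 3.60 and 3.36 CPM untreated. In all 3 the LPS replicate 1 library was the higher and replicate 2 the lower of the pair, on either side of the untreated libraries.

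At chr11:63014043-63075175, 3 sites were likewise the only counted regions in 61.1 kb, and the last 2 of them were 1133 bp apart. The first held 12.9 CPM in each GCM library, 7.84 and 7.74 CPM with LPS and 9.35 and 10.5 CPM untreated, with the groups apart and LPS lowest. The middle one, chr11:63071994-63073397, held 23.0 and 19.7 CPM with GCM, 14.6 and 14.9 CPM with LPS and 14.9 and 15.4 CPM untreated. Its LPS libraries lay at or just below the lower untreated one.

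The 2 other shortest runs had further counted regions between the sites. At chr7:41005393-41072000 the 7 other regions summed to 1.19 times untreated with GCM and 1.13 times with LPS, and all 7 had a higher mean with GCM than untreated. At chr13:84987849-85054671 the 6 others summed to 1.02 times untreated with GCM and 0.863 times with LPS. At the first site there, chr13:84987849-84989271, the level was 24.8 and 28.5 CPM with GCM, 21.3 and 15.0 CPM with LPS and 18.7 and 19.9 CPM untreated. The LPS libraries lay on either side of the untreated ones.

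Counted regions near a site, which the choice had not picked, also had higher levels with GCM. The 593 regions within 2 kb of a site had a median log2 ratio of GCM to untreated of 0.21, with a pseudocount of 0.5 CPM, against -0.01 over all other regions, and 77.6% of them were above 0, against 48.6%. The median was 0.12 from 2 to 10 kb, 0.07 from 10 to 50 kb, 0.01 from 50 to 500 kb and -0.02 beyond. With replicate 1 libraries alone it was 0.17 within 2 kb and with replicate 2 libraries alone 0.24. The same regions were also higher with LPS, at a median log2 ratio to untreated of 0.12 within 2 kb and 0.08 from 2 to 10 kb, against -0.01 over all other regions. Within 2 kb 65.3% of these regions were above untreated with LPS, against 48.7% of all other regions. The choice bears on these LPS values, since a pre-open neighbour that met the GCM clause is not a site only where its mean LPS level was above the limit. These ratios use the same 6 libraries, and both stimuli are set against the same untreated cultures.

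**Figure D4:**
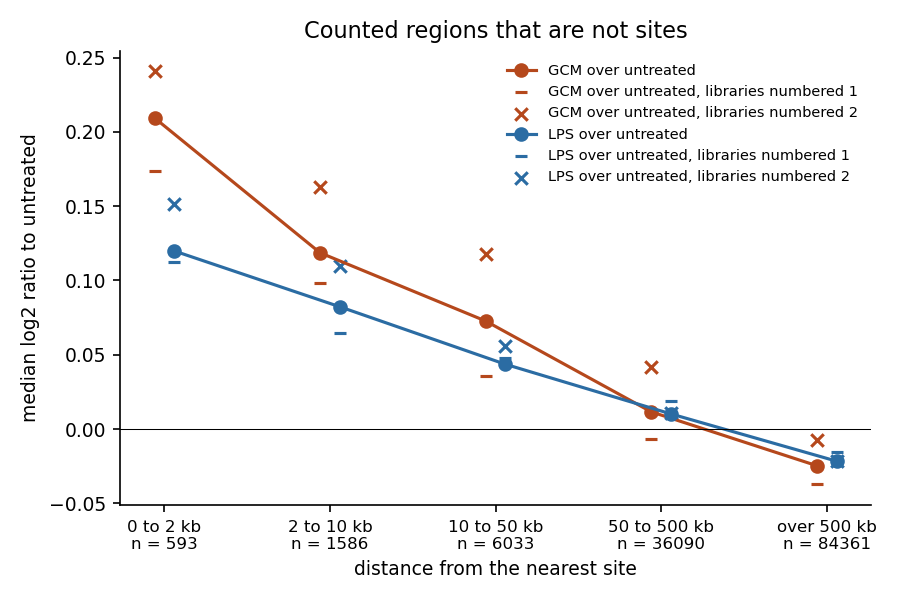
Median log2 ratio to untreated of counted regions that are not sites, by distance from the nearest site, for GCM and for LPS, with circles for group means and dashes and crosses for the libraries numbered 1 and 2. The medians with GCM fall from 0.21 within 2 kb to -0.02 beyond 500 kb, and those with LPS from 0.12 to -0.02.

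Restricting the neighbours to pre-open regions lowered both values. The 286 pre-open regions within 2 kb of a site had a median log2 ratio of 0.11 with GCM and 0.04 with LPS, against -0.02 and -0.04 over all other pre-open regions.

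Sites were found on all 21 chromosomes at unequal rates. Chromosome 11 had the highest share of its pre-open regions among the sites, 41 of 2054 (2.00%), followed by chromosome X with 19 of 1012 (1.88%) and chromosome 2 with 92 of 4930 (1.87%). Chromosome 12 had the lowest, 6 of 2017 (0.297%), after chromosome 20 with 12 of 1879 (0.639%) and chromosome 10 with 39 of 5082 (0.767%). The unequal rates were not particular to the sites. At any LPS level, the GCM clause was met by 6.72% of pre-open regions on chromosome 11, 5.93% on X and 6.21% on chromosome 2. On chromosomes 12, 20 and 10 it was met by 1.14%, 2.13% and 2.18%. Sites made up 20.8% (chromosome 13) to 36.1% (chromosome 14) of the regions that met it. The pre-open regions that were not sites also differed between chromosomes. Their summed CPM with GCM was 1.01 times untreated on chromosome 11 and 1.02 times on chromosome 2, but 0.956 times on chromosome 12 and 0.970 times on chromosome 20. On chromosome X it was 0.976. Across the 21 chromosomes, which share libraries, the share of sites and this GCM ratio had a Pearson r of 0.67 and a Spearman rho of 0.61. For the same ratio with LPS the r was 0.63 and the rho 0.59. The summed CPM with LPS over untreated also ran low on chromosome 12 (0.959) and high on chromosome 2 (1.00), and the part of these broad differences in the share of sites was not tested.

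**Figure D5:**
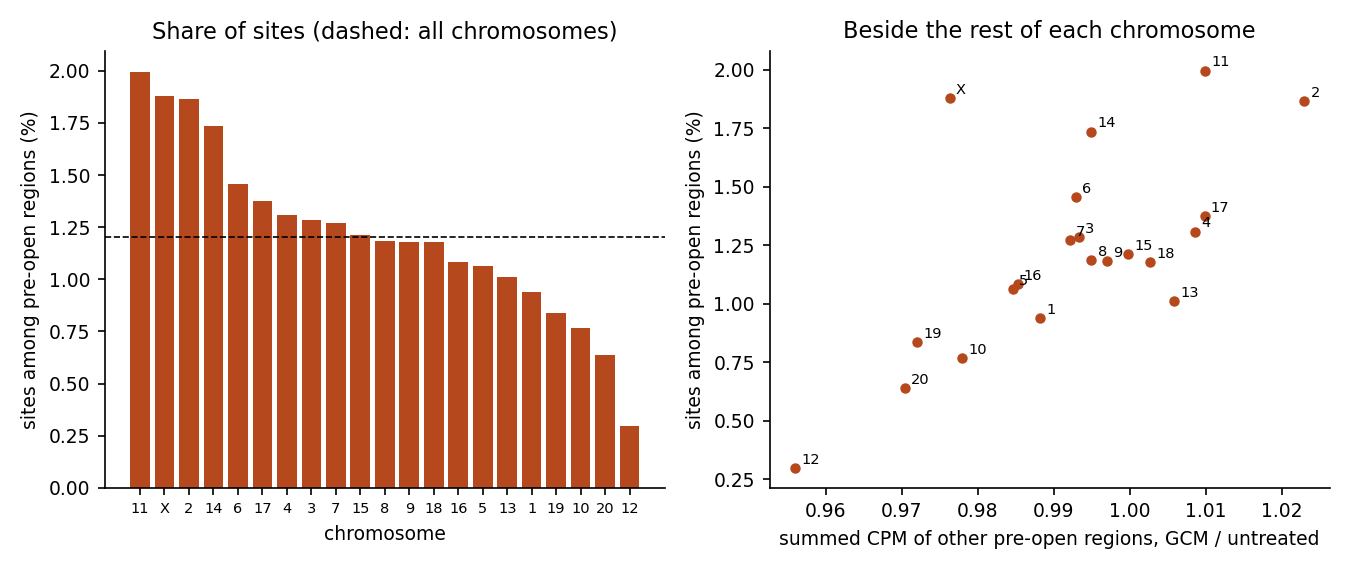
Left, sites as a percentage of the pre-open regions of each chromosome, with a dashed line at the value over all chromosomes, 1.202%. Right, the same percentage against the ratio of summed CPM, GCM over untreated, of the other pre-open regions of that chromosome; chromosome 12 lies lowest on both axes and chromosome 2 farthest right.

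The 2059 pre-open regions that met the GCM clause but had more LPS differ from the sites by construction in their LPS level. Their median levels were 9.41 CPM with GCM, 8.76 CPM with LPS and 6.34 CPM untreated, against 9.41, 6.46 and 6.73 CPM at the sites. In 840 of the 2059 the lower LPS level was also at least 1.2 times the higher untreated one. Their median width of 500 bp was close to that of the sites, and their median untreated density of 12.4 CPM per kb was lower. The GCM and LPS ratios share the untreated libraries, so a low untreated count raises both.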

How the data were processed

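DNase I sequencing was done in 6 libraries of cultured rat microglia, 2 for each of 3 groups. Per the submitters' processing notes, the tools were Bowtie 1.1.2, cutadapt 1.8.3, Picard 1.95, SAMtools, edgeR and DiffBind, with build rn5; their order and settings are not given in the sources used here. The authors deposited a raw count per region and library, tables with CPM per whole library, a log2 fold change and an adjusted p-value per region, and a hotspot list per library with a score whose definition is not given in the sources used here. Another 12 columns of per-library values were not used.

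Counts were divided by the column sum and multiplied by 1000000. A hotspot counted as present with an overlap of 1 bp (bedtools 2.31.1). Whole-library totals were recovered from the deposited CPM and the counts, with 100% of values whole within 0.001. edgeR 4.0.16 (TMM, quasi-likelihood test, minimum count 10, all 6 libraries in 1 fit, no covariate) ran in R 4.3.3 after being tested on simulated data, and DESeq2 1.42.0 was an alternative; other work used Python 3.11.15. All 836 sites passed the count filter. Named sites are the 10 with the largest ratio of the lower GCM to the higher untreated level, the 5 highest and 5 lowest untreated, the 3 widest and 3 narrowest, the 3 lowest with LPS, those next to each threshold, and the 5 runs with most sites, ties going to the shorter span, a tie rule chosen after their values were seen; the closest pairs were also chosen after their values were seen. Members and lists were chosen with earlier results of these data known. Genes, motifs and sequences were not analysed here, because the annotation at hand is of another build. Other scalings, thresholds, filters and left-out libraries were tried.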

Additional observations from a re-analysis of the deposited data

How the results depend on the processing

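The number of sites, 836, followed the thresholds. It was 2531, 267 and 31 with a GCM ratio of 1.1, 1.3 and 1.5, 402 and 1330 with an LPS ratio of 1.0 and 1.2, 2663 without the hotspot requirement and 435 with whole-library totals. When hotspots had to cover at least as many bases of a region as they left uncovered, in every library, 654 sites were left. Leaving out 1 library, or all libraries of 1 replicate number, gave 742 to 5186 sites. Chosen after seeing the data, the mean of the untreated libraries gave 1664 and the LPS limit on each library 504. TMM scaling gave 838, of which 747 were among the 836. Of 1985 regions called by edgeR for GCM against untreated, 3 remained in number with DESeq2 and 728 when only pre-open regions were fitted, with 12 to 2648 on leaving out a library. For LPS against untreated the 12433 calls became 779 with DESeq2, 3742 in pre-open regions and 4411 to 12872 on leaving out a library; for GCM against LPS the 10840 became 712, 3222 and 3933 to 9751. With DESeq2 the share of higher calls was 100%, 91.4% and 15.4% in these 3 comparisons, against 85.3%, 68.1% and 43.6% with edgeR; in pre-open regions it was 95.3% for GCM against untreated. The cause of these changes was not tested. The median width of the sites minus that of pre-open regions was -58.5 bp, but the sites were 120.5 bp wider than all counted regions and 61.5 bp wider than pre-open regions of like untreated level. The gap to the nearest counted region was 133 bp longer than in pre-open regions and 2 bp longer than in those of like level. Regions within 10 kb of a site had a median log2 GCM ratio of 0.14, within 2 kb 0.21 and within 50 kb 0.091.

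Differences between replicates 1 and 2 correlated at -0.03 between GCM and LPS, 0.16 between GCM and untreated and 0.01 between LPS and untreated, so the numbers were not shown to pair the cultures. With the replicate number as a block, edgeR called 3333 regions for GCM against untreated, 14441 for LPS against untreated and 12670 for GCM against LPS. Of the sites it called 205 for GCM against untreated and 474 for GCM against LPS.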
